A study of Mus musculus with 8 samples.

Results

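The genes described here are 10 genes of the cartilage programme, which were the SOX trio of transcription factors, Sox9, Sox5 and Sox6, and 7 noncollagenous proteins of cartilage matrix, Acan, Hapln1, Comp, Matn1, Matn3, Chad and 3110079O15Rik. They were taken by gene name from a table of 48490 genes, and all 10 had a row and passed the filter on low values (2 or more of the 8 libraries at 1 FPKM or above). FPKM counts fragments scaled by transcript length and by all fragments mapped in a library, so levels are given per length and can be set side by side between genes. The libraries were made by Smart-seq2, a full-length method for small amounts of RNA, each from a pool of 70 tdTomato-positive cells picked by hand from the proximal tibia of mice at postnatal day 5. All mice carried Col10a1Cre, a Cre recombinase driven by the type X collagen gene of hypertrophic chondrocytes, and the Rosa26-Tdtomato reporter, so the label marks cells that have switched on this Cre and their descendants, whatever they have become. GoF mice (2 libraries) also carried Ctnnb1-exon3 Δ/+, which lacks exon 3 of the β-catenin gene on 1 allele and so makes a protein that resists degradation. LoF mice (4 libraries) are labelled Ctnnb1Δ/Δ, a deletion allele on both chromosomes, whose extent is not given in the sources used here. Only labelled cells were read, so whether other cells of the GoF and LoF mice hold these deletions is not shown. WT mice (2 libraries) carried the Cre and the reporter alone. Whether libraries of a group came from separate animals is not given in the sources used here. The p-values below thus rest on a spread between libraries that may be technical, in part for LoF or in full for GoF and WT. Sex transcripts differ among the LoF libraries, as given below, so those did not all come from the same animal.

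Cartilage matrix is a mesh of type II collagen fibrils filled with aggrecan, a proteoglycan whose chondroitin sulfate chains bind water. Sox9 is the master regulator of chondrocytes and acts with its relatives Sox5 and Sox6 on the genes of this matrix, and chondrocytes switch the trio and most of its targets off as they become hypertrophic. Hypertrophic chondrocytes then die or give rise to other cells of bone, among them osteoblasts, a fate in which β-catenin, which carries the canonical Wnt signal to the nucleus, takes part.

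None of the 3 SOX genes passed the test in any comparison. The highest mean among them was that of Sox6 in GoF (3.35 FPKM) and that of Sox5 in LoF (4.00) and in WT (5.56). Of the 7 matrix genes, Comp, Chad and 3110079O15Rik were higher in GoF than in WT and higher in GoF than in LoF. 3110079O15Rik was also higher in LoF than in WT. Acan, Hapln1, Matn1 and Matn3 did not pass in any comparison. In GoF against WT, 3 of 10 genes were thus called higher and 0 lower, where 1.41% of the 12888 genes tested were called higher and 0.9% lower (limma, moderated with a mean-variance trend, Benjamini-Hochberg adjusted p under 0.05). In LoF against WT, 1 of 10 was called higher and 0 lower, against backgrounds of 0.566% and 0.667%. In GoF against LoF, 3 of 10 were called higher and 0 lower, against backgrounds of 5.97% and 5.68%. The median log2 fold change of the 10 genes was 0.85, 0.06 and 0.94 in these comparisons, and that of all genes tested -0.08, 0.06 and -0.17. Both WT comparisons use the same 2 WT libraries and are not independent of each other. Scaling moved the median of all genes in GoF against LoF to -0.05 (median ratio) or -0.03 (quantile normalization), and the 73 higher and 86 lower genes of LoF against WT became 80 and 147 with quantile normalization. Log2 fold changes here are differences of mean log2(FPKM + 1), which understate the change of low genes, while folds are ratios of mean FPKM.

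**Figure D1:**
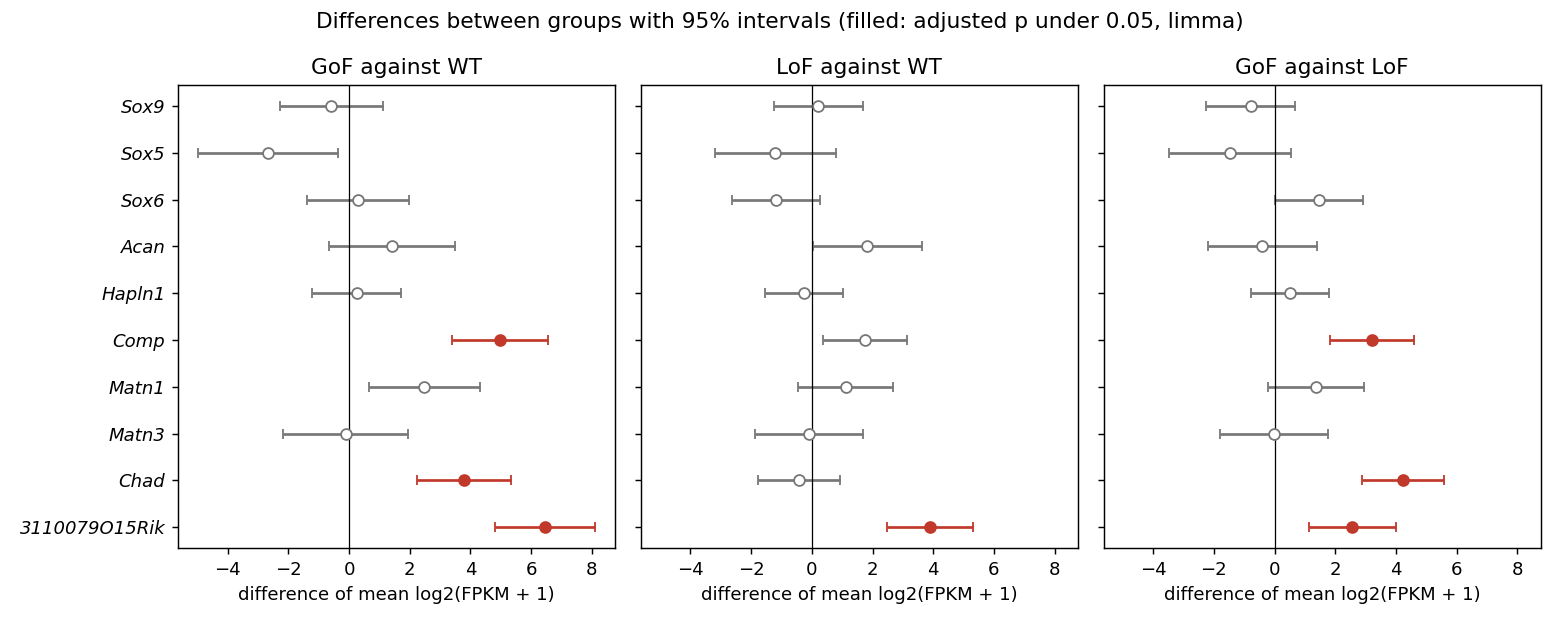
Difference of mean log2(FPKM + 1) between groups for the 10 genes, with 95% intervals, in GoF against WT, LoF against WT and GoF against LoF. Filled points passed the limma test, which were Comp, Chad and 3110079O15Rik in the first and the last comparison and 3110079O15Rik in the middle one. The values of 3110079O15Rik against WT and of Sox5 in GoF are set by the added 1, since those groups are listed at 0.

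Read totals are unknown, relative depth read from the steps between low values was 0.902 to 1.16 of WT library 2, and 12587 to 13944 genes were above 0 per library. Ctnnb1 itself had an FPKM of 72.0 and 86.7 in GoF, 67.3 to 81.1 in LoF and 137 and 146 in WT, all 6 mutant libraries lying below both WT libraries, with an adjusted p (limma) of 0.176 and 0.110 against WT. GoF and LoF differed by 0.08 on the log2 scale (adjusted p = 0.868), so the level of Ctnnb1 does not set the libraries labelled LoF apart from GoF, and it stays far above 0. The table has 1 value per gene and does not show which exons were read, so these values do not check the genotype labels. Y-linked transcripts were found in GoF 1 and 2 and in LoF 2 and 3, and Xist in LoF 1 and 4 and in WT 1 and 2, so in GoF against WT genotype and sex cannot be told apart. The 9 osteoblast markers summed to 21562 and 21397 FPKM in GoF, 1186 to 2871 in LoF and 15348 and 16100 in WT. Of the 8 genes listed as markers of growth plate chondrocytes upstream of hypertrophy, 3 (Sox9, Acan and Matn1) are genes described here. Ucma was listed at 0 in all 8 libraries, and Cytl1 was above 0 in GoF 2 alone. The 8 genes summed to 127 and 64.2 FPKM in GoF, 20.2 to 80.9 in LoF and 14.3 and 14.9 in WT. Col2a1 alone gave 90.3 and 48.8 of the GoF sums. Prg4, better known from the joint surface than from the growth plate, was at 0 in GoF and 1.01 to 14.7 in LoF and is counted in these sums. Of the 6 listed genes tested, Prg4 among them, 2 had a positive GoF against LoF difference (median -0.22). Col10a1, the gene that drives the Cre, had an FPKM of 190 and 177 in GoF, 9.61, 114, 59.3 and 69.4 in LoF, and 6.24 and 20.5 in WT. The 7 erythroid markers summed to 895 and 1838 FPKM in GoF, 76.0 to 2274 in LoF and 2557 and 10573 in WT. The part of these markers' cells in the results was not tested. In pooled cells, fewer cells of a type and less RNA per cell cannot be told apart.

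RefSeq promoter windows (GRCm38.p6, 250 bases before to 50 after the gene's start) were matched by symbol for 7 of the 10 genes, with 12 windows in all because Sox6 has several starts. The only Sox5 window is at an internal start, 834871 bases downstream of the gene's 5′ end in the deposited table, and does not describe that end. Each was searched on both strands for 2 forms of the SOX recognition sequence, AACAAT and AACAAAG, for the TCF/LEF sequence CTTTGA, bound by the partners of β-catenin, and for the TATA box TATAAA. The reverse complement of AACAAAG shares the letters CTTTG with the TCF/LEF sequence. Of all 32851 windows, 10.7% held AACAAT, 5.85% AACAAAG, 16.0% CTTTGA and 13.6% TATAAA. The windows of Chad, which was called higher in GoF, of Matn1 and Acan, which were not called, and of the Sox6 start farthest upstream are shown 5′ to 3′ on the gene's own strand to set a called gene beside others, with matches in capitals.
Chad promoter window, GRCm38.p6 chr11:94564797-94565096, plus strand: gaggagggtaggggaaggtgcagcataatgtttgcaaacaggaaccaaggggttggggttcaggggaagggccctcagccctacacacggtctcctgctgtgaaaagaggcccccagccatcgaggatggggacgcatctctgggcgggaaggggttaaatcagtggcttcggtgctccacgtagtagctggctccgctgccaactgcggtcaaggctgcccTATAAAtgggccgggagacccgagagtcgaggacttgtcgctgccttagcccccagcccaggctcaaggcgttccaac
Matn1 promoter window, GRCm38.p6 chr4:130944135-130944434, plus strand: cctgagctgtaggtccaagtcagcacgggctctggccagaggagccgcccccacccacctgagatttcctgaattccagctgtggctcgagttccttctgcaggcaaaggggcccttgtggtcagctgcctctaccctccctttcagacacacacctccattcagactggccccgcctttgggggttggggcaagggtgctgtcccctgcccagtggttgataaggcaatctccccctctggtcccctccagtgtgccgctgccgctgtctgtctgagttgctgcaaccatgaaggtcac
Acan promoter window, GRCm38.p6 chr7:79052976-79053275, plus strand: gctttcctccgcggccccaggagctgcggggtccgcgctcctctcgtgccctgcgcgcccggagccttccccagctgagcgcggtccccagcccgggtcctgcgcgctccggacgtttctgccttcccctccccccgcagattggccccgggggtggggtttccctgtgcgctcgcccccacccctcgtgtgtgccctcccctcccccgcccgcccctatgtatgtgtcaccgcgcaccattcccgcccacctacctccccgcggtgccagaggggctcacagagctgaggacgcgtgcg
Sox6 promoter window, GRCm38.p6 chr7:116038695-116038994, minus strand: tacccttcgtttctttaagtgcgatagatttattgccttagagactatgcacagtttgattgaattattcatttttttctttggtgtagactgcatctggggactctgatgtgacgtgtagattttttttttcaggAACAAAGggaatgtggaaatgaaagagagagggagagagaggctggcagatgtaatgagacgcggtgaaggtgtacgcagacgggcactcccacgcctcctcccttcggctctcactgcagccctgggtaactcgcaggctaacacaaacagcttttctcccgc
Chad had a TATA box at -28 from its start and no other match. The windows of Matn1, Acan, Matn3 and Hapln1 and the internal window of Sox5 held none of the searched letters. The Acan window is set on a start at -257 from the gene's 5′ end in the deposited table, and it ends before that 5′ end. In the Sox6 window shown, AACAAAG stood at -114, and other Sox6 windows held matches to all 4 sequences. Those other windows are at internal starts, 7749 to 237187 bases downstream of the gene's 5′ end in the deposited table. A match describes these letters only, and binding was not measured.

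Sox9 (ENSMUSG00000000567.5, chromosome 11, 112782224 to 112787760, mm10), the regulator that starts and maintains the chondrocyte state, had an FPKM of 0.165 and 0.130 in GoF, 0.557, 0.639, 4.31 and 0.142 in LoF, and 0 and 1.93 in WT. LoF library 3 was the highest and the groups overlapped. Sox9 averaged 0.147 ± 0.0246 (SD, n = 2) in GoF, 1.41 ± 1.95 (SD, n = 4) in LoF and 0.967 ± 1.37 (SD, n = 2) in WT. Its log2 fold change was -0.58 (95% interval -2.27 to 1.12) in GoF against WT, 0.21 (-1.26 to 1.68) in LoF against WT and -0.79 (-2.26 to 0.68) in GoF against LoF (limma, adjusted p = 0.81, 0.932 and 0.5). LoF library 3 also had the highest sum of the 8 endothelial markers, 104 FPKM with all 8 above 0, against 1.57 and 1.72 in GoF, 0.564 to 15.4 in the other LoF libraries and 7.58 and 5.43 in WT, and the part of this in the Sox9 value was not tested.

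Sox5 (ENSMUSG00000041540.16, chromosome 6, 143828425 to 144781977), which lacks an activation domain and helps Sox9 at cartilage enhancers, was listed at 0 in both GoF libraries. It had an FPKM of 14.2, 0.297, 0.400 and 1.12 in LoF, and 7.09 and 4.03 in WT. Both GoF libraries lay below all other libraries, while the LoF range enclosed that of WT, with LoF library 1 far above the other 3. Neither GoF against WT (limma, adjusted p = 0.261) nor GoF against LoF (adjusted p = 0.355) passed, and LoF against WT gave -1.21 on the log2 scale (SE 0.90, adjusted p = 0.615). Without LoF replicate 1, GoF against WT passed (adjusted p = 0.0409). In the annotation, Sox5 overlaps Gm44068 and Sox5it on its own strand and Sox5os1 to Sox5os5 on the other, and Smart-seq2 does not mark strand, but all 7 were listed at 0 in every library.

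Sox6 (ENSMUSG00000051910.13, chromosome 7, 115470872 to 116038796), the partner of Sox5 in the trio, had an FPKM of 4.66 and 2.03 in GoF, 0.577, 0.202, 0 and 1.63 in LoF, and 5.91 and 0.672 in WT. Both GoF libraries lay above all 4 LoF libraries, and the WT libraries spanned both. Its log2 fold change in GoF against LoF was 1.47 (95% interval 0.01 to 2.93, limma, adjusted p = 0.194). In GoF against WT it was 0.29 (-1.40 to 1.97, adjusted p = 0.924), and in LoF against WT -1.19 (-2.64 to 0.27, adjusted p = 0.49). On the other strand Sox6os and Gm45025 overlap Sox6, the first listed at 0 in all libraries and the second above 0 only in LoF library 2 (0.936 FPKM).

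**Figure D2:**
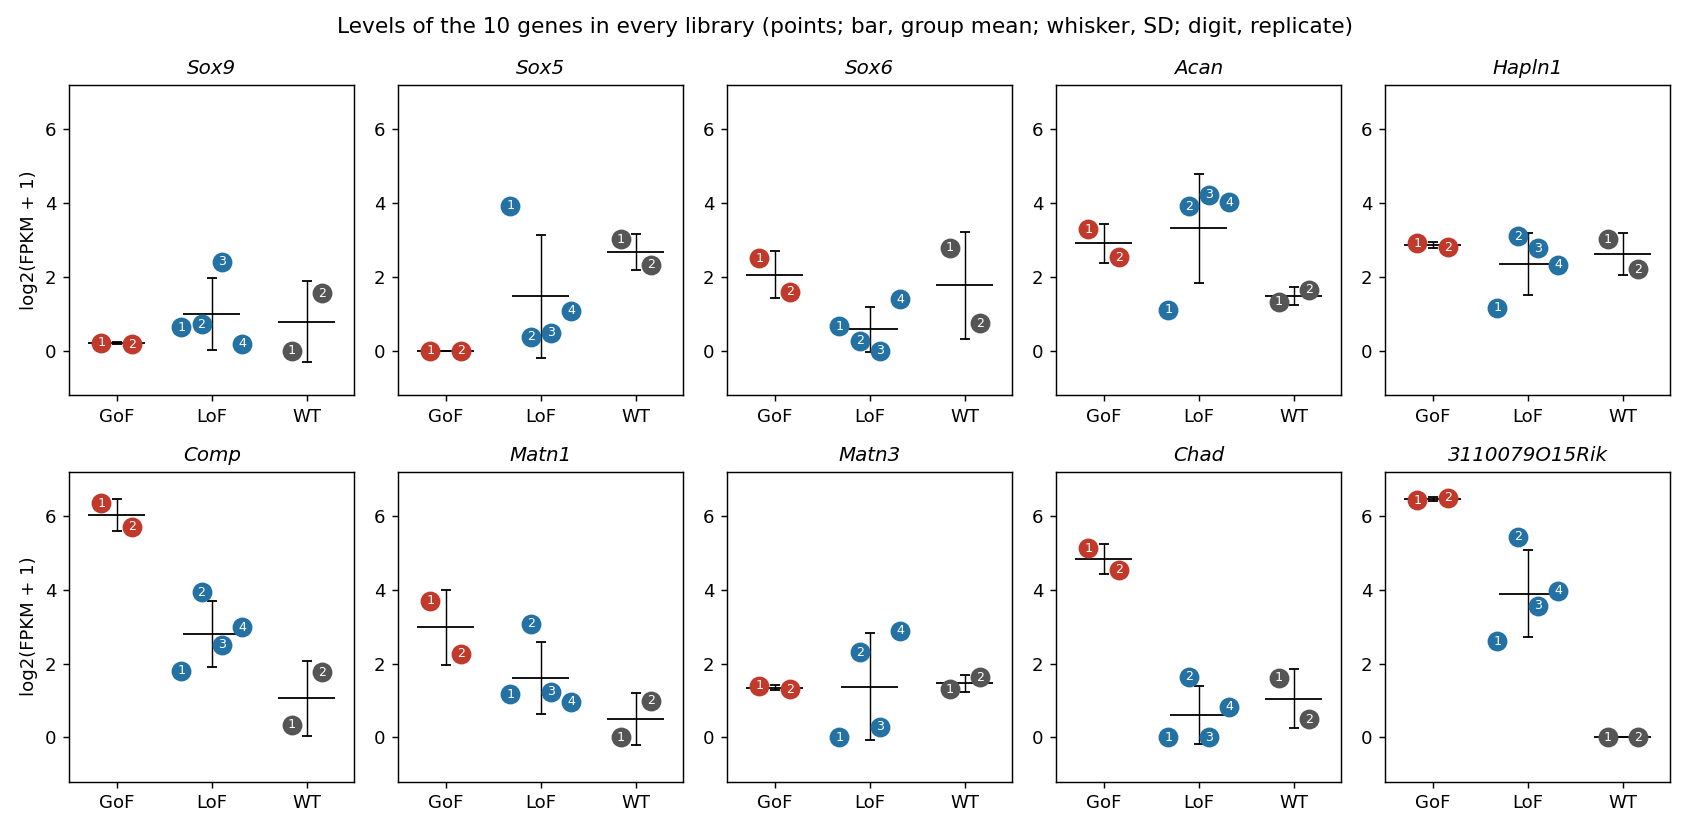
Level of each of the 10 genes in every library as log2(FPKM + 1), by group. Points are libraries with their replicate number, bars are group means and whiskers SD (n = 2 GoF, 4 LoF and 2 WT). Comp, Chad and 3110079O15Rik lie higher in both GoF libraries than in all 4 LoF and both WT libraries, and the LoF points of Acan hold 3 high libraries and 1 low library.

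Acan (ENSMUSG00000030607.7, chromosome 7, 79053483 to 79115099) encodes the core protein of aggrecan. It had an FPKM of 8.74 and 4.79 in GoF, 1.16, 14.1, 17.8 and 15.2 in LoF, and 1.49 and 2.15 in WT. LoF libraries 2, 3 and 4 were the highest of all, LoF library 1 was the lowest, and both GoF libraries lay above both WT libraries. Acan averaged 6.77 ± 2.79 (SD, n = 2) in GoF, 12.1 ± 7.42 (SD, n = 4) in LoF and 1.82 ± 0.463 (SD, n = 2) in WT. Its log2 fold change was 1.42 (SE 0.93, limma, adjusted p = 0.567) in GoF against WT and 1.83 (SE 0.80, adjusted p = 0.363) in LoF against WT. In GoF against LoF it was -0.41 (SE 0.80, adjusted p = 0.794). Without LoF replicate 1 the LoF against WT difference was 2.57 and passed (adjusted p = 0.0329).

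Hapln1 (ENSMUSG00000021613.8, chromosome 13, 89540636 to 89611832) encodes link protein, which fixes aggrecan to hyaluronan. Its FPKM was 6.51 and 5.98 in GoF, 1.24, 7.53, 5.86 and 4.03 in LoF, and 7.08 and 3.61 in WT. The groups overlapped, and LoF library 1 was again the lowest. Log2 fold changes were 0.25 (95% interval -1.23 to 1.72) in GoF against WT, -0.27 (-1.55 to 1.01) in LoF against WT and 0.51 (-0.76 to 1.79) in GoF against LoF (limma, adjusted p = 0.926, 0.891 and 0.627). Of the 10 genes, Hapln1 was the second highest in WT and the sixth in GoF, at nearly the same mean (6.25 ± 0.374 in GoF and 5.34 ± 2.45 in WT, SD, n = 2 each). Gm8546, a gene on the other strand within Hapln1, reached at most 1.04 FPKM.

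Comp (ENSMUSG00000031849.9, chromosome 8, 70373558 to 70382066) encodes cartilage oligomeric matrix protein, a pentameric thrombospondin that links collagen fibrils to proteoglycans and is also made in tendon. Its FPKM was 79.9 and 51.5 in GoF, 2.51, 14.3, 4.68 and 6.91 in LoF, and 0.269 and 2.41 in WT. The 3 groups did not overlap, with GoF highest and WT lowest, although LoF library 1 lay close to WT library 2. Comp was 49.1-fold higher in GoF than in WT (65.7 ± 20.1 and 1.34 ± 1.51 FPKM, SD, n = 2 each) and 9.25-fold higher than in LoF (7.11 ± 5.14, SD, n = 4). The log2 fold changes were 4.97 (SE 0.72, limma, adjusted p = 0.00699) and 3.22 (SE 0.62, adjusted p = 0.00874). The fold against WT rests on low WT values and was 27.3 without WT replicate 1 and 244 without WT replicate 2, and that against LoF was 13.98 without LoF replicate 2. LoF against WT, at 1.75 (SE 0.62, adjusted p = 0.243), did not pass. With fewer libraries these calls ended. In GoF against WT the adjusted p was 0.133 without GoF replicate 1, 0.0774 without GoF replicate 2 and 0.0858 without WT replicate 1, and in GoF against LoF 0.175 and 0.091 without GoF replicates 1 and 2. Dcn and the other 5 tendon and fibroblast markers summed to 902 and 809 FPKM in GoF, 116 to 180 in LoF and 173 and 451 in WT. These markers moved both ways. Dcn, the gene of the proteoglycan decorin, gave 886 and 797 of the GoF sums, and Mkx, a tendon transcription factor, was higher in GoF than in LoF (8.50 and 5.56 FPKM, against 0 to 1.10, limma, adjusted p = 0.00699). Col3a1, the type III collagen of fibroblasts, was lower in GoF at 3.06 and 0.538 FPKM, against 92.7 to 136 in LoF and 14.8 and 23.9 in WT (adjusted p = 7.59e-05 against LoF and 0.0117 against WT). The Mkx call ended without GoF replicate 1 (0.0852), and that of Col3a1 against WT without GoF replicate 2 (0.0691), WT replicate 1 (0.0727) or 2 (0.121) and with sex as a covariate (0.204). Tnmd, a tendon marker, was listed at 0 in all libraries. The part of these markers' cells in the Comp values was not tested.

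Matn1 (ENSMUSG00000040533.7, chromosome 4, 130944385 to 130955475), the cartilage matrix protein matrilin-1, is an adaptor of collagen fibrils and aggrecan. Its FPKM was 11.97 and 3.81 in GoF, 1.25, 7.46, 1.36 and 0.950 in LoF, and 0 and 0.994 in WT. Both GoF libraries lay above both WT libraries, and LoF library 2 lay within the GoF range. The log2 fold change was 2.48 (SE 0.82, limma, adjusted p = 0.179) in GoF against WT, 1.11 (SE 0.71, adjusted p = 0.558) in LoF against WT and 1.37 (SE 0.71, adjusted p = 0.268) in GoF against LoF.

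Matn3 (ENSMUSG00000020583.4, chromosome 12, 8947929 to 8972028), the related adaptor matrilin-3, had an FPKM of 1.63 and 1.47 in GoF, 0, 3.97, 0.216 and 6.41 in LoF, and 1.47 and 2.09 in WT. LoF libraries 2 and 4 lay above all others and LoF libraries 1 and 3 below. The GoF libraries differed from WT by -0.12 and from LoF by -0.02 on the log2 scale, and LoF from WT by -0.10 (limma, adjusted p = 0.99, 0.991 and 0.981), and the sign of the GoF against LoF difference turned with either scaling. The 95% interval of that difference, -1.79 to 1.75, is wide.

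Chad (ENSMUSG00000039084.8, chromosome 11, 94565047 to 94569127) encodes chondroadherin, a leucine-rich repeat protein that binds collagen and integrins. Its FPKM was 33.7 and 22.4 in GoF, 0, 2.12, 0 and 0.776 in LoF, and 2.05 and 0.406 in WT. Both GoF libraries stood above all other libraries, and LoF and WT overlapped. Chad was 38.8-fold higher in GoF than in LoF (28.1 ± 8.05, SD, n = 2, and 0.723 ± 0.999, SD, n = 4) and 22.8-fold higher than in WT (1.23 ± 1.17, SD, n = 2). The log2 fold changes were 4.22 (SE 0.61, limma, adjusted p = 0.00203) and 3.78 (SE 0.70, adjusted p = 0.023), and that of LoF against WT was -0.43 (SE 0.61, adjusted p = 0.825). These folds rest on values near 0, and the fold against LoF was 108 without LoF replicate 2, while that against WT was 69.1 and 13.7 without WT replicates 1 and 2. In GoF against LoF the call ended without GoF replicate 1 (adjusted p = 0.0571). In GoF against WT it ended without GoF replicate 1 or 2 (adjusted p = 0.195 and 0.118), without WT replicate 1 or 2 (0.0885 and 0.161), with a pseudocount of 0.1 (0.211) and without a filter (0.0579). Chad lies within Acsf2, a gene of the opposite strand, whose reads cannot be told from it without strand. Acsf2 had an FPKM of 1.33 and 1.05 in GoF, 0.187 to 2.60 in LoF and 1.20 and 0.881 in WT, and did not pass in any comparison (limma, adjusted p = 0.981, 0.869 and 0.863).

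3110079O15Rik (ENSMUSG00000026258.5, chromosome 1, 87470271 to 87475482) is named Snorc in GENCODE vM21 and encodes a small transmembrane chondroitin sulfate proteoglycan of cartilage. Its FPKM was 85.1 and 89.3 in GoF and 5.11, 42.2, 10.9 and 14.7 in LoF, and it was listed at 0 in both WT libraries. The 3 groups did not overlap, and it was the highest of the 10 genes in both GoF libraries and the lowest in WT. In LoF it had the highest mean because of LoF library 2, while Sox5 was higher in LoF library 1 and Acan in LoF libraries 3 and 4, and without LoF replicate 2 its mean was 10.2 FPKM, below the 11.4 of Acan. It was 4.79-fold higher in GoF than in LoF (87.2 ± 2.95, SD, n = 2, and 18.2 ± 16.5, SD, n = 4), or by 2.57 on the log2 scale (SE 0.64, limma, adjusted p = 0.0289), and 8.52-fold without LoF replicate 2. It was also higher in GoF than in WT (adjusted p = 0.00279) and in LoF than in WT (adjusted p = 0.0238), without a fold because WT is listed at 0. GoF against WT lost its call without GoF replicate 1 or 2 (adjusted p = 0.0607 and 0.0502). GoF against LoF lost it without either GoF replicate (0.247 and 0.217), LoF replicate 3 or 4 (0.0541 and 0.0526) or either WT replicate (0.0535 and 0.0532), with a pseudocount of 0.1 (0.0502) and without a filter (0.0752). LoF against WT lost it without either GoF replicate (0.115 and 0.113), LoF replicate 4 (0.0513), either WT replicate (0.189 and 0.252), a filter (0.0856) or the mean-variance trend (0.0507).

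Calls of Comp, Chad and 3110079O15Rik were set beside the sex markers. With sex as a covariate none of the 3 passed in GoF against WT (limma, log2 fold change 4.15 with adjusted p = 0.189 for Comp, 3.38 with 0.271 for Chad, and adjusted p = 0.0951 for 3110079O15Rik). The effect of sex in that fit comes from the LoF libraries alone and is carried over to GoF and WT, since only LoF holds both sexes. In GoF against LoF, Chad alone of the 3 kept its call in that fit (limma, adjusted p = 0.0501 for Comp and 0.121 for 3110079O15Rik). In the 4 libraries with Y-linked transcripts alone, GoF against LoF differed by 2.80 for Comp (adjusted p = 0.111), 4.01 for Chad (0.0934) and 1.96 for 3110079O15Rik (0.214). These differences kept their sign and did not pass in this fit of 2 GoF against 2 LoF libraries. In the 4 libraries with Xist alone, LoF against WT did not pass for 3110079O15Rik (adjusted p = 0.358), which was at 5.11 and 14.7 FPKM in LoF and 0 in WT.

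Across the 7 matrix genes, the summed FPKM was 228 and 179 in GoF, 11.3, 91.7, 40.7 and 49.0 in LoF, and 12.4 and 11.7 in WT. Both GoF libraries were above all LoF libraries, LoF library 1 lay below both WT libraries, and the other 3 LoF libraries above them. The makeup also differed between groups. In GoF, 3110079O15Rik took 37.4% and 49.8% of the sum and Comp 35.1% and 28.7%, while Acan took 3.84% and 2.68%. In LoF, Acan took 10.3%, 15.4%, 43.6% and 31.0%, and 3110079O15Rik 45.4%, 46.0%, 26.7% and 30.0%. In WT, Hapln1 held the largest share, 57.3% and 30.9%. LoF library 2 was the highest of the 4 for 5 of 7 genes (Hapln1, Comp, Matn1, Chad and 3110079O15Rik). LoF library 1 was the lowest for 5 of 7 (Acan, Hapln1, Comp, Matn3 and 3110079O15Rik). The same count over all tested genes was not made, so these extremes are not shown to be particular to these genes. FPKM summed over all genes was 293194 in LoF library 1 and 343302 to 349378 in the other LoF libraries. Col10a1 had the same extremes among the LoF libraries, as given above.

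**Figure D3:**
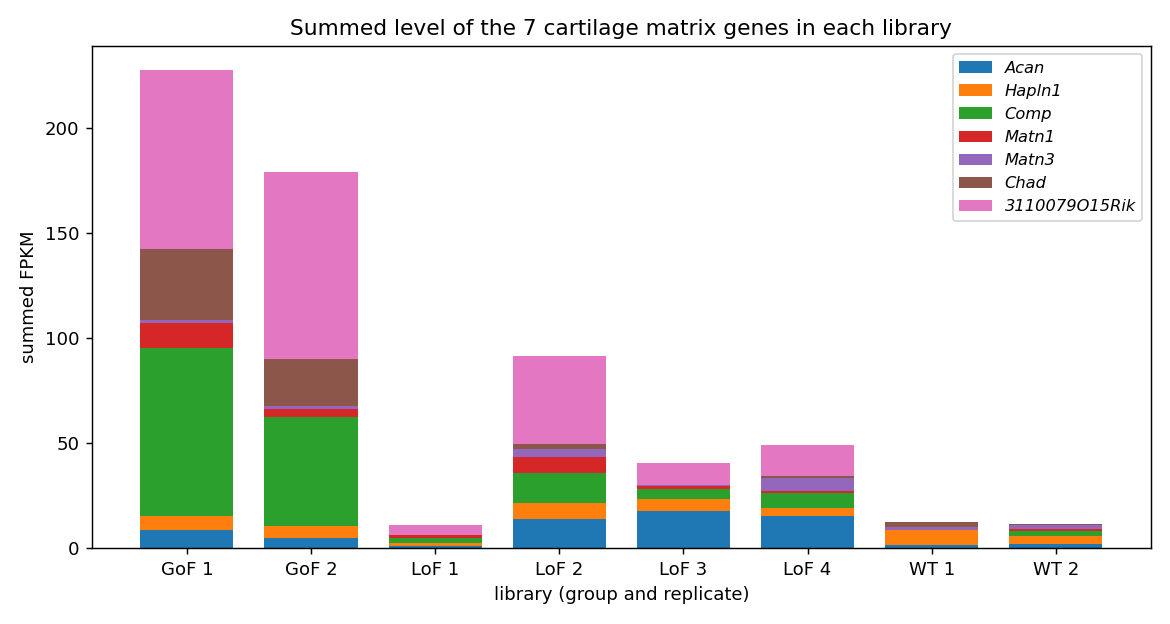
Summed FPKM of the 7 matrix genes in each library, stacked by gene. The GoF bars reach 228 and 179, the LoF bars 11.3 to 91.7 and the WT bars 12.4 and 11.7, and Comp, Chad and 3110079O15Rik make up most of the GoF bars.

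The order of mean levels changed between groups. In GoF it ran 3110079O15Rik, Comp, Chad, Matn1, Acan, Hapln1, Sox6, Matn3, Sox9 and Sox5, and neighbours overlapped only for Matn1, Acan and Hapln1. The first 3 stood above 95.3%, 93.8% and 87.4% of all tested genes. In LoF, by means that single libraries move, it ran 3110079O15Rik, Acan, Comp, Hapln1, Sox5, Matn1, Matn3, Sox9, Chad and Sox6, and all neighbours overlapped. In WT it ran Sox5, Hapln1, Sox6, Acan, Matn3, Comp, Chad, Sox9, Matn1 and 3110079O15Rik, and all neighbours overlapped or touched at 0. The highest WT mean, that of Sox5 at 5.56 FPKM, stood above 56.1% of tested genes.

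Likeness between genes was described by Pearson's r of log2(FPKM + 1) over the 8 libraries, which share their genotype groups, so that a gene set apart by GoF resembles any other such gene. Of 45 pairs, 4 reached an r of at least 0.8, which were Comp with 3110079O15Rik (0.92), Comp with Matn1 (0.89), Matn1 with 3110079O15Rik (0.84) and Comp with Chad (0.83). Below 0 were 18 pairs. Sox5 ran opposite to Acan and Comp (-0.81 each) and to 3110079O15Rik (-0.80), and Sox9 opposite to Sox6 (-0.75). Col10a1 had an r of 0.92 with Comp, 0.91 with 3110079O15Rik, 0.82 with Matn1, 0.74 with Acan and -0.95 with Sox5. Col2a1, the gene of type II collagen, had an r of 0.91 with 3110079O15Rik, 0.89 with Comp and -0.38 with Sox9.

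**Figure D4:**
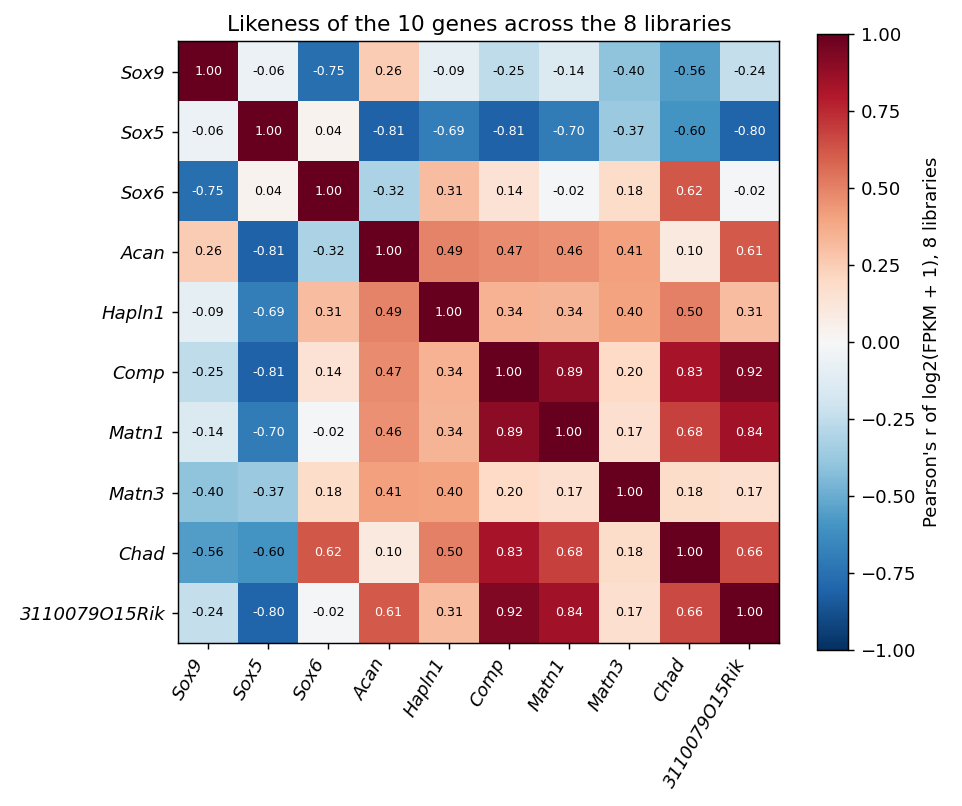
Pearson's r of log2(FPKM + 1) over the 8 libraries for each pair of the 10 genes. Comp, Matn1, Chad and 3110079O15Rik form a block of positive values from 0.66 to 0.92, while Sox5 is negative with all 7 matrix genes and Sox9 is near 0 or negative with all but Acan.

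The genes most like each of the 10, among named genes with a mean FPKM of at least 5, were as follows. Ackr3, a scavenger receptor of the chemokine CXCL12, was the most like Comp (r = 0.98), with 19.7 and 11.5 FPKM in GoF, 2.31 to 4.43 in LoF and 0.824 and 3.08 in WT. Higd1a, a mitochondrial protein induced by low oxygen, was the most like Chad (0.98), ahead of the malic enzyme gene Me1 (0.98). Spcs1, a subunit of the signal peptidase, was the most like 3110079O15Rik (0.96), and Comp itself was the most like Matn1. Twsg1, which encodes a modulator of BMP ligands, was the most like Acan (0.98), with 15.9 and 13.3 FPKM in GoF, 9.13, 16.4, 19.2 and 17.4 in LoF and 9.59 and 9.29 in WT. Rars was the most like Hapln1 (0.96), Usp50 the most like Matn3 (0.94), Sec61a2 the most like Sox9 (0.94), Mir99ahg the most like Sox5 (0.91) and Clcn4 the most like Sox6 (0.96). Each gene was searched among all genes at this level over only 8 libraries, and values of this size are a description only.

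Other genes of the cartilage matrix were read from lists, mainly in GoF against LoF, where most calls were made. Of 7 cartilage collagens tested, Col11a2 and Col11a1, chains of the type XI collagen that seeds type II fibrils, were higher and 5 did not pass (median log2 fold change 1.60, against -0.17 for all genes). Col11a1 had an FPKM of 240 and 230 in GoF, 53.0, 23.0, 21.5 and 25.6 in LoF, and 159 and 146 in WT. It thus stood high in WT, where Comp and 3110079O15Rik were low. Col11a1 and Col11a2 were lower in LoF than in WT (limma, adjusted p = 0.0178 and 0.0133), while 3110079O15Rik was higher. Those 2 calls ended without either WT replicate (adjusted p = 0.174 and 0.197 for Col11a1, 0.117 and 0.171 for Col11a2) and without either GoF replicate (0.0904 and 0.0906, and 0.0762 each). They also ended with sex as a covariate (0.108 and 0.0654) and in the libraries with Xist alone (0.365 and 0.334). For Col11a1 the call also ended without LoF replicate 2 (0.0534), without a filter (0.066) and without the trend (0.0559). Col2a1 had an FPKM of 90.3 and 48.8 in GoF, 7.39, 35.3, 17.9 and 38.3 in LoF, and 9.48 and 5.64 in WT, and did not pass in GoF against WT (adjusted p = 0.0545), although it passed without LoF replicate 1 (0.0172), with median ratio scaling (0.0318), with quantile normalization (0.0467) and with a minimum of 5 FPKM (0.0364).

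Among the relatives of Acan and Hapln1, 4 of 6 genes were tested, 2 were higher in GoF than in LoF and 1 was lower (median 2.75). Hapln4, a link protein best known from brain, had an FPKM of 15.1 and 15.9 in GoF, 0 in each LoF library, and 0.851 and 2.05 in WT (limma, adjusted p = 0.000352 against LoF and 0.0188 against WT). Outside GoF only WT library 2 reached 1 FPKM, so Hapln4 passed the filter because of the GoF libraries. The call against WT ended without either GoF or either WT replicate (adjusted p = 0.0607, 0.0546, 0.179 and 0.0632) with a pseudocount of 0.1 (0.128) and with sex as a covariate (0.199). Bcan, the gene of brevican, a proteoglycan related to aggrecan, had 28.1 and 17.9 FPKM in GoF, 0 to 1.02 in LoF and 3.64 and 6.42 in WT (adjusted p = 0.000735 against LoF). Vcan, the gene of the widely expressed proteoglycan versican, was lower in GoF than in LoF at 2.83 and 5.09 FPKM, against 10.3 to 17.4 in LoF (adjusted p = 0.0399). Vcan lost its call under 12 of the 18 alternatives, both scalings among them, and its adjusted p reached 0.293 without GoF replicate 1. Comp and Hapln4 lie 282695 bases apart on chromosome 8, and Hapln1 and Vcan 43479 bases apart on chromosome 13.

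Among 6 tested relatives of Comp and the matrilins, Thbs4 was higher and Thbs3 lower in GoF than in LoF (median -0.18). Both encode thrombospondins of the same pentameric class as Comp. Thbs4 had 1.31 and 5.51 FPKM in GoF and was at 0 in each LoF and WT library (limma, adjusted p = 0.0205 against LoF and 0.0906 against WT). Thbs3 had 0 and 0.345 FPKM in GoF, 7.12 to 10.8 in LoF and 1.22 and 8.25 in WT (log2 difference -3.03, SE 0.58, adjusted p = 0.0085), and its adjusted p was 0.132 without GoF replicate 1 and 0.0804 without GoF replicate 2. Of 10 other chondrocyte genes tested, Mia, a small secreted cartilage protein, was higher and 9 did not pass (median 0.26). Mia had 32.6 and 53.0 FPKM in GoF, 1.82, 6.97, 0 and 0 in LoF, and 0 and 7.54 in WT (adjusted p = 0.0211). Its adjusted p was 0.194 and 0.222 without GoF replicates 1 and 2, 0.107 with a pseudocount of 0.1 and 0.0683 without a filter.

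Of 19 tested genes that make and sulfate the chondroitin sulfate chains of aggrecan, the GoF libraries were higher than LoF for 6 and lower for 0, and 13 did not pass (median 0.72), beside the 5.97% of all genes called higher. Without GoF replicate 1, 5 of the 6 calls ended, and without GoF replicate 2 all 6 did. They were Chst13, Chst11 and Chst12, which sulfate the chain, Papss1 and Papss2, which make the sulfate donor, and Chsy1, which extends the chain. Papss2 had 26.8 and 31.7 FPKM in GoF, 5.12, 5.58, 1.59 and 3.93 in LoF, and 9.23 and 5.30 in WT (log2 difference 2.66, SE 0.47, limma, adjusted p = 0.00586). Its adjusted p was 0.0796 without GoF replicate 1 and 0.091 without GoF replicate 2. Chst13 had 16.0 and 35.7 FPKM in GoF, 0.423 to 2.88 in LoF, and 15.9 and 15.3 in WT (log2 difference 3.36, SE 0.51, adjusted p = 0.00286, and 0.0686 without GoF replicate 2). Chsy1 lost its call under 13 of the 18 alternatives, with an adjusted p of 0.31 without GoF replicate 1. Acan, the main carrier of these chains, did not pass in the same comparison, with means of 6.77 FPKM in GoF and 12.1 in LoF.

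Of 9 tested proteases that cut aggrecan or COMP, with the inhibitor gene Timp3 among them, 3 were lower in GoF than in LoF and 1 was higher (median -1.21). Mmp13, a collagenase that also cuts aggrecan and marks late hypertrophic cells, had 10.9 and 86.7 FPKM in GoF, 3113 to 4784 in LoF, and 2106 and 1514 in WT. Its log2 fold change was -6.96 (SE 0.60, limma, adjusted p = 0.000148) against LoF and -5.79 (SE 0.70, adjusted p = 0.0033) against WT, the second of which ended without WT replicate 1 (adjusted p = 0.0621), with sex as a covariate (0.0897), with only the groups compared (0.143) and with the replicate block (0.0622). Mmp13 was the only 1 of the 8 hypertrophic markers called lower in GoF than in LoF. Panx3, Phospho1, Alpl, Mef2c and Ihh were called higher (median of the 8 genes 2.01). Col10a1 and Pth1r did not pass (log2 fold changes 1.95 and -0.29). Alpl is also 1 of the 9 osteoblast markers, of which 8 were called higher in this comparison, beside 5.97% of all genes. Alpl, Bglap and Sp7 among those lost their call in the libraries with Y-linked transcripts alone, and also without GoF replicate 1 or 2. Col1a1 and Col1a2 lost theirs without GoF replicate 1, and Bglap also with the replicate block. In LoF against WT, Panx3 and Phospho1 were lower (adjusted p = 0.0243 and 0.0463) and the other 6 did not pass. Those 2 calls ended without either WT replicate (adjusted p = 0.202 and 0.252 for Panx3, 0.144 and 0.361 for Phospho1) and with sex as a covariate (0.127 and 0.232). In GoF against LoF, the calls of Mef2c, Phospho1 and Alpl ended without GoF replicate 1 (0.199, 0.0619 and 0.121) or 2 (0.0961, 0.0861 and 0.135). That of Ihh ended with the replicate block (limma, adjusted p = 0.0785) and in the libraries with Y-linked transcripts alone (0.142). Ihh had a log2 fold change of 1.80 in GoF against LoF and against WT, and 0 in LoF against WT. This is the pattern of a gene listed at 0 outside GoF. Such a gene passes the filter through GoF alone, and has no spread in any group once either GoF library is left out. Timp3, which inhibits the aggrecanases, had 0 and 1.69 FPKM in GoF, 15.05 to 39.5 in LoF, and 24.5 and 18.4 in WT (adjusted p = 0.00118 against LoF). Adamts4, an aggrecanase, was lower, and Adamts15, another, was higher (adjusted p = 0.0412 and 0.0205). Adamts4 lost its call under 13 of the 18 alternatives, among them every leave-out but that of LoF replicate 2, and that of Adamts15 without GoF replicate 2 (adjusted p = 0.114).

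Of 7 receptors of cartilage matrix, Itga11, a subunit of a collagen receptor, was higher and Itga1, a subunit of another, was lower in GoF than in LoF (median 0.75, limma, adjusted p = 0.0439 and 0.0117). Itga11 lost its call under 12 of the 18 alternatives, with an adjusted p of 0.228 and 0.25 without GoF replicates 1 and 2, and Itga1 under 4, with 0.0809 and 0.159 without the same libraries. Of 16 other SOX genes, 10 were listed at 0 in all libraries and 3 were tested, none of which passed. Runx2, the transcription factor of hypertrophy and bone, had 33.6 and 19.9 FPKM in GoF, 19.4 to 33.6 in LoF, and 38.2 and 63.7 in WT, and did not pass (adjusted p = 0.991 in GoF against LoF). Of the 20 genes of these lists called in GoF against LoF, 7 kept their call when each of the 8 libraries was left out in turn (Col11a1, Col11a2, Bcan, Hapln4, Thbs4, Mmp13 and Timp3), and 11 and 13 lost it without GoF replicates 1 and 2. Thbs4 passed the filter through the GoF libraries alone, being at 0 in each LoF and WT library. With either GoF library left out Thbs4 has no spread within any group, so its kept call is no sign of stability. Hapln4 also passed the filter because of GoF, since of the LoF and WT libraries only WT library 2 reached 1 FPKM. It has no spread in LoF, and with either GoF library left out its spread comes from WT alone. In the 4 libraries with Y-linked transcripts alone, Col11a1 was the only 1 of the 20 to pass.

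**Figure D5:**
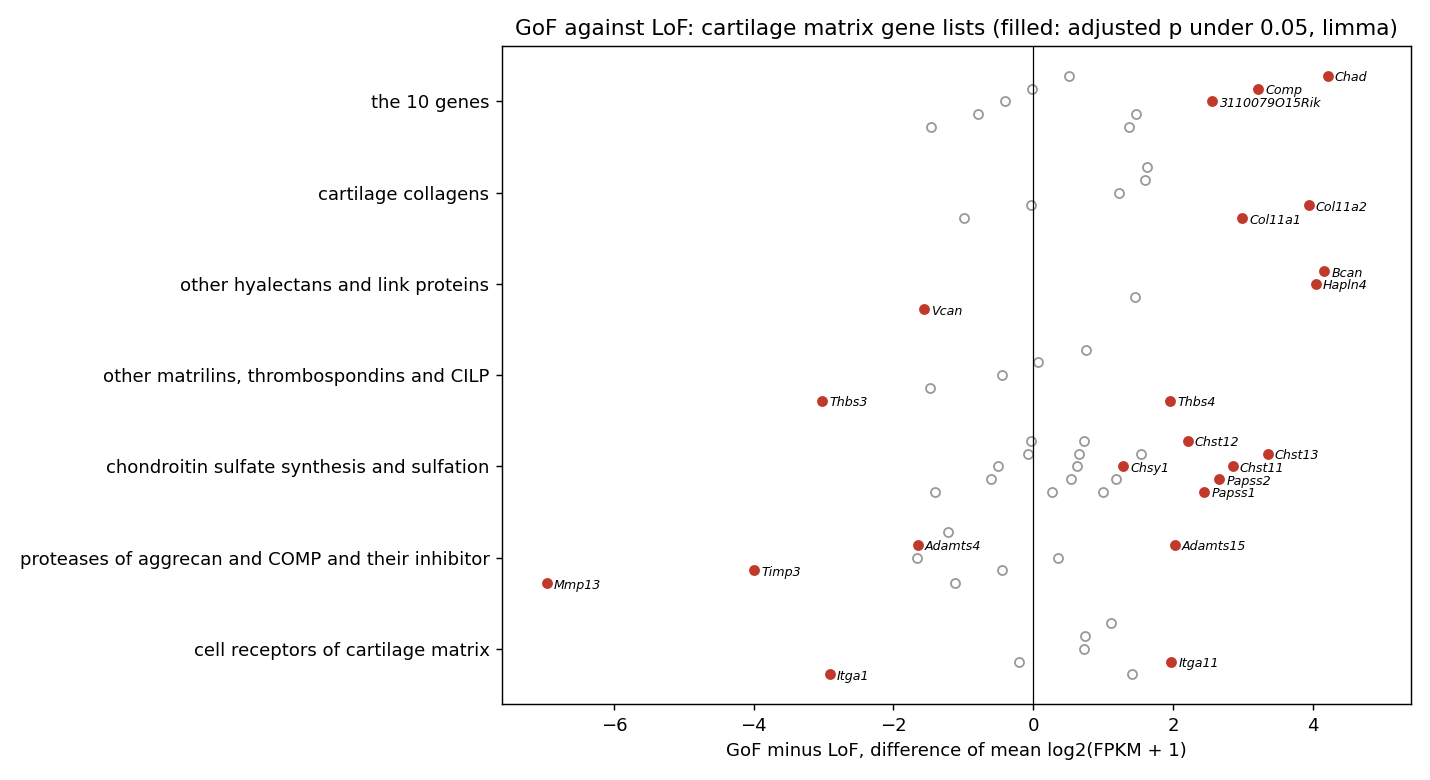
Difference of mean log2(FPKM + 1) in GoF minus LoF for the tested genes of the lists named on the axis, with the 10 genes in the top row and genes that passed the limma test filled and named. Of the 10 genes, 3 are filled to the right of 0, and in the list of chondroitin sulfate genes 6 are. Values of genes listed at 0 in a group, such as Hapln4 and Thbs4 in LoF, are set by the added 1.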

How the data were processed

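RNA from pools of 70 tdTomato-positive cells was made into libraries by Smart-seq2, per the labels' protocols. The authors deposited 1 table of FPKM per gene and library. The submitters' processing notes name the tools HISAT2, Cufflinks, HTSeq and SAMtools (0.1.18), without a role or order, and the build mm10. No annotation release is given in the sources used here. Since FPKM divides by library total, abundant genes lower the other values of a library, and reads of near-identical copies or of antisense partners cannot be told apart. Of 48555 lines, 65 repeated 1 of 49 gene IDs with identical values, which left 48490 genes. Starts in the table count from 0 and are given here from 1, which equals the GENCODE vM21 locus for 99.97% of 41125 shared IDs. No libraries were identical. With read totals unknown, no counting intervals are given, and the number of libraries limits the precision.

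Groups came from the sample titles. Values were used as log2(FPKM + 1) without further scaling. The 12888 genes that reached 1 FPKM in 2 or more of the 8 libraries were fitted together in limma 3.58.1 (R 4.3.3, group means, mean-variance trend, two-sided), so that all groups share 1 estimate of the spread (10.1 total degrees of freedom, of which 5.09 from the prior). The code was tested on simulated data. Genes were called at a Benjamini-Hochberg adjusted p under 0.05 over all genes tested. The alternatives were a pseudocount of 0.1, no filter, a minimum of 5 FPKM, scaling by median ratios, quantile normalization, a fit of only the groups compared, no trend, the replicate number as a block, sex as a covariate, leaving out each library, and, added after seeing the data, only libraries with Y-linked transcripts or with Xist. The 10 genes, the lists and the tests were chosen with earlier results of these data known. Named genes are the 10, up to 4 called genes per list and comparison, 5 fixed genes (Col2a1, Col10a1, Mmp13, Runx2 and Ctnnb1), listed markers, genes that overlap the 10, and the 3 genes most like each of the 10. Chsy1 and Chst12, beyond the first 4 by p in their list, and Acsf2 were added to this rule after their values were seen. Promoters are from RefSeq (GRCm38.p6).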

Additional observations from a re-analysis of the deposited data

Results flagged for a closer look

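In the 4 LoF libraries, 3 of the 10 genes had a single library set apart from the other 3, where the gap to the nearest library exceeded the critical share of the range. Chance alone sets off about 1 group in 20 where values are normally distributed, which FPKM need not be. On the log2(FPKM + 1) scale the gap stayed above the critical share for Matn1 (0.87 of the range) but not for Sox9 (0.765) or Sox5 (0.8). Sox9 was at 4.31 FPKM in LoF library 3, with a gap of 0.881 of the range, and 0.142 to 0.639 in the others. Sox5 was at 14.2 FPKM in LoF library 1, with a gap of 0.941, and 0.297 to 1.12 in the others. Matn1 was at 7.46 FPKM in LoF library 2, with a gap of 0.937, and 0.950 to 1.36 in the others. Each of the 3 genes was set apart in another library.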

How the results depend on the processing

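No difference of the 10 genes past the threshold turned its direction under any alternative. Of the 10 genes, 3 were called in GoF against WT, and 0 were called with only the groups compared (6 at an unadjusted p under 0.05 in limma), with the replicate block (5) or with sex as a covariate (3). In LoF against WT 1 was called, and 0 were without a filter (2), with only the groups compared (2), without the trend (2), with the replicate block (1), with sex as a covariate (1) or in the libraries with Xist (1). In GoF against LoF 3 were called, and 0 were with the replicate block (4), 1 with sex as a covariate and 0 in the libraries with Y-linked transcripts (4). Leaving out 1 library gave 0 to 4, 0 to 2 and 0 to 3 in the same order of comparisons, the 0 counts being without either GoF replicate in GoF against WT, without either GoF or WT replicate or LoF replicate 4 in LoF against WT, and without GoF replicate 1 in GoF against LoF, with 1 to 4 genes at an unadjusted p under 0.05 in each. Of all tested genes, 298 were called in GoF against WT, 0 with only the groups compared (2334 unadjusted), 15 with the replicate block, 11 with sex as a covariate and 39 to 332 without 1 library. In LoF against WT 159 were called, 83 with a pseudocount of 0.1, 53 without a filter, 0 with only the groups compared (1569 unadjusted), 54 without the trend, 1 with the replicate block, 14 with sex as a covariate, 0 in libraries with Xist (1283 unadjusted) and 0 to 135 without 1 library (0 without GoF replicate 1 or 2, with 1578 and 1583 unadjusted). In GoF against LoF 1501 were called, 727 with the replicate block, 974 with sex as a covariate, 93 in libraries with Y-linked transcripts and 429 to 1369 without 1 library. A minimum of 5 FPKM left Sox9, Sox6 and Matn3 untested. Deviations of same-numbered libraries correlated at -0.007 to 0.03, which shows no pairing by number. In GoF and WT the 2 deviations are mirror images, so few of these values are independent. They cannot decide whether libraries shared a litter, day or batch, which was not tested. The replicate block also spends degrees of freedom. With 1 library left in a group, it was assumed to vary like the others. The causes of the other changes were not tested. Unknown read depth leaves the error of values near 0 unmeasured.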
